A study of Mus musculus with 18 samples.

Results

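The 10 genes described here make or feed the enzymes that turn arachidonic acid into prostaglandins, thromboxane and leukotrienes: Pla2g4a, Ptgs1, Ptgs2, Hpgds, Ptges, Tbxas1, Alox5, Alox5ap, Ltc4s and Lta4h. They were taken by symbol from a table of 45777 genes, and all 10 passed the filter on low counts that left 17159 genes for testing. Expression was measured by RNA-seq in 18 libraries of cultured mouse bone marrow cells labelled BMMC, a culture widely used as a source of mast cells. WT cells were Sirt6 flox/flox, and KO cells were LysM-Cre; Sirt6 flox/flox, so the control cells carried the floxed alleles as well and only KO cells carried Cre, driven by the lysozyme M promoter of myeloid cells. Both genotypes have libraries at levels 0, 20 and 60, given without a unit, with no agent named at 0 and LPS named at 20 and 60, although the series title refers to FcεRI, the IgE receptor. Every group held 3 libraries, numbered 4120, 414 and 6110. The labels do not tie a number to an animal or a dish, so p-values here measure only the spread between these samples, which may be technical. Libraries that share a number and a genotype are called a culture here.

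Cytosolic phospholipase A2 releases arachidonic acid from membranes. The cyclooxygenases Ptgs1 and Ptgs2 convert it to prostaglandin H2, which terminal synthases turn into prostaglandin D2, prostaglandin E2 or thromboxane A2, while 5-lipoxygenase, helped by its activating protein, turns it into leukotriene A4, the source of leukotrienes B4 and C4. Activated mast cells are known for prostaglandin D2 and leukotriene C4, made at once by enzymes already present, and for a delayed phase of prostaglandin output that depends on induced Ptgs2.

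Depth was 20026054 to 42265435 counts a library, and 3 counts in the shallowest were 0.15 CPM (counts scaled to a common depth). The 15 mitochondrially encoded genes took between 4.07% and 41.7% of a library. All 10 mast cell markers had counts in every group, and they summed to 15522 to 45910 CPM, with Cpa3 and Cma1 the largest. Mcpt4 was low, with group means of 0.991 to 2.12 CPM. Single markers differed between genotypes in both directions. At 0 the mean of Tpsb2 was 3793 CPM in WT and 1478 CPM in KO, and that of Kit was 1350 and 2473 CPM. Sirt6 itself was not lower in KO at 0, with 16.7 ± 2.66 CPM against 14.6 ± 2.44 CPM (SD, n = 3), and a gene-level count that may include exons outside the deletion checks no genotype label. Lyz2, the lysozyme M gene, was low in both genotypes at 0, with 2.25 ± 1.46 CPM in WT and 0.112 ± 0.127 CPM in KO (SD, n = 3). Whether it bears on the genotype labels or on the extent of the deletion was not tested. All CPM below use TMM-scaled library sizes.

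A stretch of 250 bases before a RefSeq transcript start is shown for each cyclooxygenase gene because the results turn on this pair: Ptgs2 rose at 20, and Ptgs1 passed in no comparison. For Ptgs2 this start is the first base of the annotated gene, whereas the start in the Ptgs1 entry lies 13684 bp inside the gene as annotated, so the Ptgs1 stretch is upstream of an internal start. The sequences are RefSeq's in build GRCm38.p6, written 5′ to 3′ on the plus strand at chr1:150099781-150100030 for Ptgs2 and chr2:36230176-36230425 for Ptgs1. Capitals mark matches to the motifs searched.
Ptgs2: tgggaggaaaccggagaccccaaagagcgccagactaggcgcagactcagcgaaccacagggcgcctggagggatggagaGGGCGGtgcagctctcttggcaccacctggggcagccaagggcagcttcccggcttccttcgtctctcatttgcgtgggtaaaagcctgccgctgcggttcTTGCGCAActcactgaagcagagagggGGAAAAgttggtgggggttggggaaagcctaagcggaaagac
Ptgs1: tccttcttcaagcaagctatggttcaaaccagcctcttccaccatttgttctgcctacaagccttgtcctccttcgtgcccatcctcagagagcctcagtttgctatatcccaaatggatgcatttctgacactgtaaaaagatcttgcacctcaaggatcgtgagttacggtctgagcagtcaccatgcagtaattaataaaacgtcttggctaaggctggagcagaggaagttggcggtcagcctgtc
The Ptgs2 stretch held a GC box (GGGCGG), a palindrome bound by C/EBP factors (TTGCGCAA) and the NFAT core (GGAAAA). Counting the first base of the RefSeq transcript as 1, the C/EBP palindrome lay at −69 to −62. Where transcription starts in these cells was not tested. It was found in 0.183% of 32851 RefSeq windows of 300 bases (250 before the start and 50 after it), the GC box in 35.7% and the NFAT core in 23.4%. Just after the annotated Ptgs2 start, a core of the cyclic AMP response element (TGACG, read here on the other strand) overlapped an E-box (CACGTG). These 20 bases, at chr1:150100038-150100057, carry both matches in one run of capitals.
Ptgs2 start: ccactaCGTCACGTGgagtc
The cyclic AMP element core was in 20.8% of windows and the E-box in 7.15%. The complete element (TGACGTCA, in 1.79% of windows) and the AP-1 motif (TGANTCA, in 7.81%) had no match in the Ptgs2 window. Neither had the kappa B motif (8.46% of windows) or the hexamer TATAAA (13.6%). The windows of Ptgs1, Hpgds and Ltc4s held none of these 9 motifs on either strand. Of the 10 genes, 9 matched an entry. A match describes letters and is no evidence of binding, and the lack of one says only that these letters are not in the window.

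Levels per length were compared in the deposited TPM. At 0 the order in WT, from high to low, was Alox5ap (720 ± 489 TPM), Alox5 (280 ± 68.3), Tbxas1 (141 ± 27.1), Hpgds (130 ± 60.4), Ltc4s (64.8 ± 9.46), Lta4h (52.3 ± 14.2), Ptgs1 (13.2 ± 9.77), Pla2g4a (9.37 ± 5.02), Ptges (2.33 ± 1.44) and Ptgs2 (0.416 ± 0.127; SD, n = 3 throughout). Neighbours whose libraries overlapped were Alox5ap with Alox5, Tbxas1 with Hpgds, Ltc4s with Lta4h, and Ptgs1 with Pla2g4a. The rest of the order was separated, so the leukotriene genes and the synthases of prostaglandin D2 and thromboxane lay above both cyclooxygenases, and Ptgs2 was last. In KO at 0 the order was the same apart from an exchange of Lta4h with Ltc4s and of Pla2g4a with Ptgs1, which overlapped, and Ptgs2 stood at 0.418 ± 0.174 TPM. At 20 Ptgs2 ranked 7 of 10 in both genotypes, at 34.6 ± 16.2 TPM in WT and 35.1 ± 18.9 TPM in KO. In WT its lowest library at 20 (22.9 TPM) was above the highest Ptgs1 library (19.2 TPM), whereas in KO the lowest (16.2 TPM) lay within the Ptgs1 range of 12.1 to 16.5 TPM. At 60 Ptgs2 ranked 9 of 10 in WT (3.25 ± 1.34 TPM), overlapping Ptges, and 8 of 10 in KO (12.4 ± 5.95 TPM), overlapping both Ptgs1 and Pla2g4a.

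**Figure D1:**
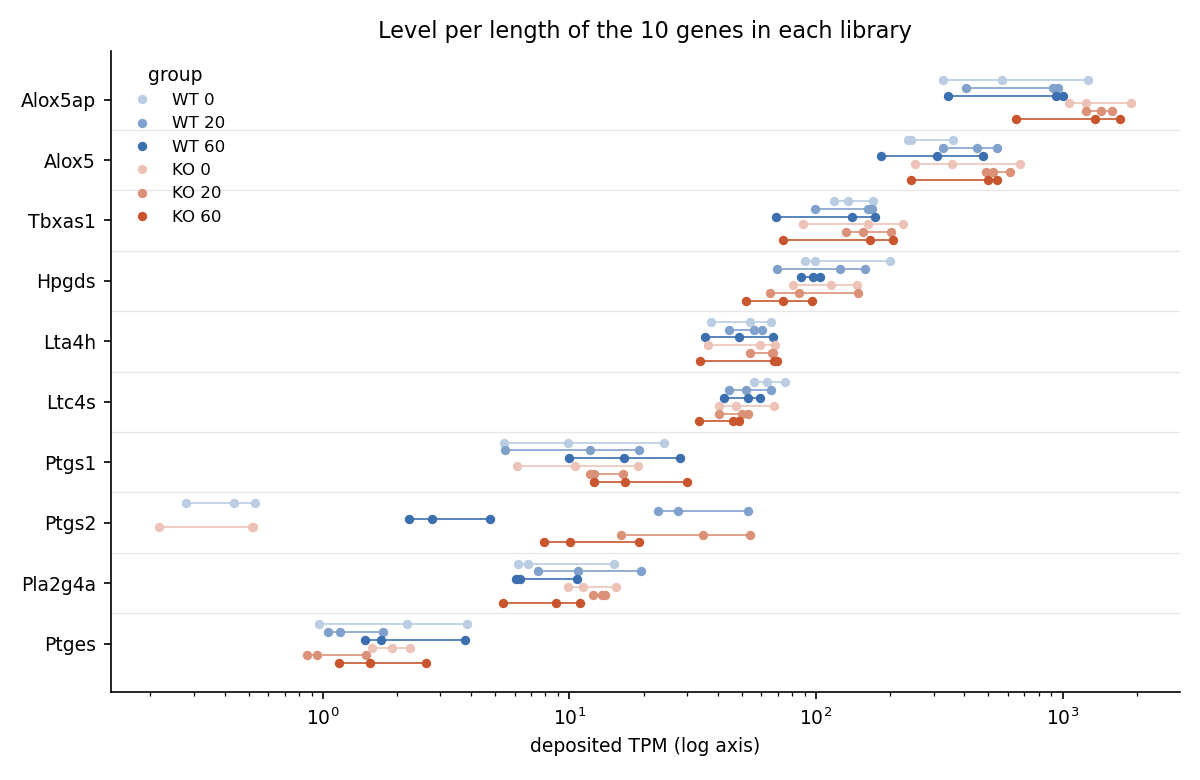
TPM of the 10 genes on a log axis, with a point per library, a line from the lowest to the highest library and a row per group (WT blue, KO orange, darker with level). Ptgs2 is the one gene whose groups spread over the axis, from 0.217 TPM at 0 to 54.0 TPM at 20.

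Pla2g4a (gene ID 18783, chromosome 1, 149829618 to 149961290 in GRCm38), which encodes the arachidonate-releasing cytosolic phospholipase A2, passed the test in no comparison. Its WT libraries, in the order 4120, 414, 6110, had 14.5, 21.3 and 12.2 CPM at 0, then 16.9, 25.4 and 18.7 at 20, and 15.1, 16.1 and 12.3 at 60. In KO they had 15.1, 20.9 and 19.4 CPM at 0, then 17, 22.8 and 19.8 at 20, and 15.3, 14.1 and 15.1 at 60. The libraries at 60 lay below all those at 20 in both genotypes, a separation that 6.1% of tested genes showed in WT and 8.61% in KO. The log2 difference of 60 from 20 was −0.49 ± 0.22 (SE) in WT and −0.42 ± 0.22 in KO, with edgeR Benjamini-Hochberg adjusted p of 0.62 and 0.57. Pla2g4a and Ptgs2 lie on the same chromosome, 138740 bp apart, with 2 other annotated genes between them.

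Ptgs2 (gene ID 19225, chromosome 1, 150100031 to 150108234), the inducible cyclooxygenase, rose steeply between 0 and 20 in both genotypes and was still above its starting level at 60. The table also holds the symbol COX2, which is a mitochondrial cytochrome oxidase subunit and was not used. In WT the libraries 4120, 414 and 6110 had 1.6, 1.17 and 0.783 CPM at 0, then 97.6, 108 and 62.2 CPM at 20, and 6.1, 8.9 and 15.0 CPM at 60. In KO they had 1.09, 0.748 and 1.01 CPM at 0, then 114, 91.8 and 36.2 CPM at 20, and 41.4, 32.1 and 26.9 CPM at 60. Every library at 20 or 60 exceeded every library at 0 of its genotype, a separation seen in 5.46% (20) and 5.41% (60) of tested genes in WT and in 4.2% and 9.18% in KO. Within WT the 3 levels did not overlap. In KO the library of 6110 at 20 lay below that of 4120 at 60.

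At 20 against 0, Ptgs2 rose 77.0-fold in WT, a log2 change of 6.27 ± 0.50 (SE; edgeR Benjamini-Hochberg adjusted p = 6.7e-06), and 84.0-fold in KO, a log2 change of 6.39 ± 0.50 (edgeR adjusted p = 7.4e-06). It was the 1 member called in each, where 0.6% of tested genes were called higher in WT and 0.443% in KO. By culture the rise was 61.1-, 91.7- and 79.5-fold in WT and 105-, 123- and 35.8-fold in KO, in the order above. The difference between genotypes in this response was 0.13 ± 0.60 on the log2 scale (edgeR adjusted p = 1). In bulk RNA, fewer cells with the transcript and less of it per cell cannot be told apart.

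At 60 Ptgs2 was still above 0 in both genotypes. The log2 change from 0 was 3.11 ± 0.45 in WT, or 8.65-fold (edgeR adjusted p = 0.0084), and 5.12 ± 0.47 in KO, or 34.8-fold (edgeR adjusted p = 4e-05). Ptgs2 was again the 1 member called, beside 0.198% of genes called higher in WT and 1.99% in KO. The WT call rests on single libraries: without number 414 at 0 the adjusted p was 0.098, and without number 6110 at 60 it was 0.062. Leaving out all libraries of 4120 or of 414 gave adjusted p of 0.26 and 0.31.

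Between 20 and 60 Ptgs2 fell by 3.15 log2 units in WT (SE 0.42, edgeR adjusted p = 0.0016), where 0.286% of genes were called lower. That call was lost without number 4120 (adjusted p = 0.17) and without number 414 (0.32). In KO the difference was −1.27 ± 0.39 and did not pass (edgeR adjusted p = 0.17), with 0.361% of genes called lower, although the value at 60 was below that at 20 in 3 of 3 cultures. As a share of its level at 20, Ptgs2 at 60 stood at 6.24%, 8.26% and 24.2% in the WT cultures and at 36.3%, 34.9% and 74.5% in the KO cultures. The ranges of these shares did not overlap, with KO above WT as in 3.46% of the 15868 genes whose share could be computed in every culture, and the difference between the genotypes in this decline was not tested.

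KO and WT were close at 0 (0.948 ± 0.177 against 1.19 ± 0.408 CPM, SD, n = 3) and at 20 (80.7 ± 40.2 against 89.2 ± 23.9 CPM), with log2 differences of −0.27 ± 0.46 and −0.14 ± 0.38 and edgeR adjusted p of 0.84 and 0.93. At 60 the KO libraries stood at 33.5 ± 7.32 CPM and the WT libraries at 10 ± 4.58 CPM. All KO values were above all WT values, which 7.34% of tested genes showed, and KO was higher in 3 of 3 numbers. The fitted difference was 3.34-fold, or 1.74 ± 0.40 on the log2 scale, and did not pass over all genes (unadjusted p = 4.8e-04, edgeR adjusted p = 0.096). None of the 10 members was called in this comparison, where 0.268% of genes were called in either direction.

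The call at 60 changed with the tool and with number 6110. DESeq2 gave 1.73 with an adjusted p of 0.0051, edgeR without number 6110 gave 2.3 (adjusted p = 0.013), and edgeR without only the WT library of 6110 at 60 gave 2.19 (0.049). These were the only 3 of 24 alternatives that passed. The adjusted p was 0.098 in limma-voom and 0.26 when edgeR was fitted to the compared groups only. The difference between genotypes in the response at 60 was 2.01 ± 0.61 on the log2 scale (unadjusted p = 0.0044, edgeR adjusted p = 1), a comparison in which edgeR called 0 of the 17159 genes, DESeq2 called 2, and 188 had an unadjusted p under 0.05. Other quantities differed between these libraries too. The mitochondrial share at 60 was lower in KO in each number (4.45% against 8.8%, 34.5% against 41.7% and 4.27% against 15.7%), and with this share as a covariate the Ptgs2 difference was 1.77 (adjusted p = 0.11). The 10 neutrophil markers summed to 13.2 to 22.3 CPM in KO at 60 and to 0.106 to 5.29 CPM in WT, where Elane had no count. They were higher in KO at the other levels too, with 7.5 to 14.0 against 0.201 to 1.57 CPM at 0. At 20 they summed to 7.26 to 27.2 CPM in KO and 0.0915 to 3.91 CPM in WT. At 60 the 11 macrophage markers summed to 173 to 343 CPM in KO and 121 to 245 CPM in WT, mostly Cd68 and Cx3cr1. Marco and Msr1 had no count in either. Markers of basophils and eosinophils went both ways at 60. Higher in KO were Mcpt8 (14.0 against 2.38 CPM), Prss34 (4.64 against 0.513), Itgam (1.59 against 0.326), Prg2 (4.14 against 0.396) and Epx (1.67 against 0.202). Lower in KO were Cd200r3 (158 against 184 CPM), Siglecf (2.38 against 3.96) and Ccr3 (1.07 against 1.48). The part of any of these cells in the Ptgs2 difference was not tested.

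**Figure D2:**
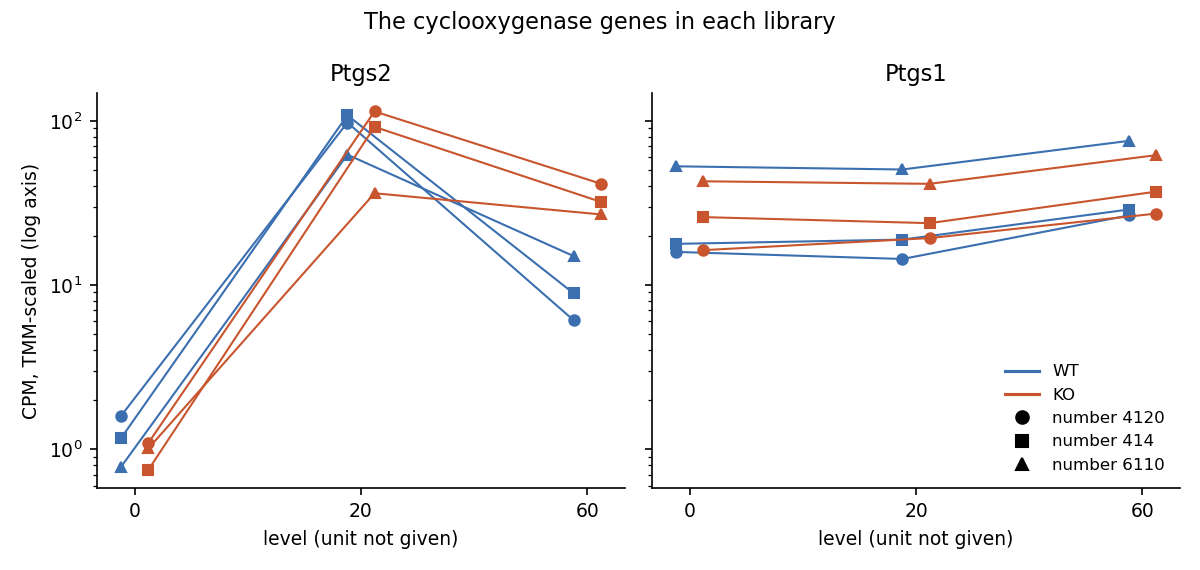
CPM of Ptgs2 (left) and Ptgs1 (right) on a shared log axis at levels 0, 20 and 60 (drawn at even steps), a line per culture, WT blue and KO orange. Ptgs2 rises at 20 in all 6 cultures and at 60 the 3 KO cultures sit at 26.9 to 41.4 CPM above the WT cultures at 6.1 to 15.0, while the Ptgs1 lines end 1.43- to 1.67-fold above their start, with number 6110 on top.

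The genes most like Ptgs2 over the 6 group means were looked up by the root mean square distance between centred log2 CPM, among 10724 genes. The nearest were Nfkbid (0.42), Egr2 (0.48), Ccl4 (0.54), Ccl7 (0.60) and Ccl3 (0.63), against a median distance of 2.62. Nfkbid encodes a nuclear regulator of NF-kappa B, Egr2 a zinc finger transcription factor, and the others chemokines. The measure chose them for likeness to Ptgs2 over these same means, those at 60 included. Features shared with Ptgs2 are therefore built into the choice and add no support to its differences. In both genotypes all 5 had their lowest mean at 0, and 4 had their highest at 20, whereas Ccl7 in KO had 274 CPM at 20 and 301 CPM at 60. At 60 each had a higher mean in KO than in WT, for example Ccl4 at 426 against 89.9 CPM and Nfkbid at 388 against 163 CPM.

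Ptgs1 (gene ID 19224, chromosome 2, 36216742 to 36258593), the cyclooxygenase regarded as constitutive, passed in no comparison. Its WT libraries 4120, 414 and 6110 had 15.9, 17.8 and 52.8 CPM at 0, then 14.4, 18.9 and 50.5 CPM at 20, and 26.5, 28.8 and 75.4 CPM at 60. The KO libraries had 16.3, 25.9 and 42.8 CPM at 0, then 19.3, 23.8 and 41.3 CPM at 20, and 27.2, 37.0 and 61.7 CPM at 60. Number 6110 was highest in 6 of 6 groups, and the groups overlapped in every comparison. The spread within a group (highest over lowest library, median 2.74) exceeded the 1.56-fold spread between group means, whereas Ptgs2 had 1.89 within groups and 94.1 between group means. For the 10097 genes averaging 5 CPM or more the medians were 1.48 within and 1.54 between, and 0.149% of those genes varied between group means by as much as Ptgs2.

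Ptgs1 was higher at 60 than at 0 in 3 of 3 cultures of each genotype, by 1.66-, 1.62- and 1.43-fold in WT and 1.67-, 1.43- and 1.44-fold in KO, with log2 differences of 0.59 ± 0.58 in WT and 0.57 ± 0.58 in KO (edgeR adjusted p = 0.93 and 0.78). KO differed from WT by −0.03 at 0, 0.01 at 20 and −0.05 at 60, each ± 0.58 (edgeR adjusted p = 0.99, 1 and 0.98). Number 6110 enters these standard errors. With the number as a block they were 0.18, and the difference of 60 from 0 was 0.64 in WT and 0.59 in KO, which still missed the threshold (edgeR adjusted p = 0.11 and 0.07). Deposited TPM per CPM varied 1.79-fold between libraries for Ptgs1 against 1.01- to 1.15-fold for the other members, so its TPM carry an added uncertainty.

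The balance of the cyclooxygenases was tested as the log2 ratio of Ptgs2 to Ptgs1 within each library, on CPM with 0.1 added. The mean log2 ratio went from −4.32 ± 1.41 to 1.85 ± 1.35 and then −2.03 ± 0.33 in WT, and from −4.67 ± 0.78 to 1.44 ± 1.44 and then −0.26 ± 0.90 in KO, at 0, 20 and 60 (SD, n = 3). Over both genotypes the ratio at 20 was 6.14 higher than at 0, and at 60 it was 3.34 higher than at 0, each with p = 0.005 in a two-sided exact permutation test within genotypes (400 assignments, smallest possible p 0.005; Benjamini-Hochberg adjusted p = 0.0075 over 3 tests). The ratio at 60 was lower than at 20 by 2.79 log2 units, a difference of −2.79 (exact permutation p = 0.01, adjusted 0.01). In TPM, Ptgs2 was at 0.0116 to 0.0853 of Ptgs1 at 0 in any library. At 20 Ptgs2 exceeded Ptgs1 in 5 of 6 libraries (0.983 to 5.04), and at 60 it was at 0.167 to 0.224 in WT and 0.337 to 1.14 in KO.

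Between genotypes the ratio differed by −0.35 at 0, −0.42 at 20 and 1.77 at 60 on the log2 scale. Two-sided exact permutation tests of 3 against 3 libraries gave p of 0.9, 0.6 and 0.1 (adjusted 0.9, 0.9 and 0.3), and 0.1 is the smallest p that this design allows. At 60 the log2 ratios were −2.1, −1.68 and −2.32 in WT and 0.61, −0.21 and −1.19 in KO, without overlap.

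Set against Alox5 and Alox5ap, Ptgs2 stayed low at every level. In TPM its ratio to Alox5 was 0.000766 to 0.00225 at 0 and 0.0311 to 0.0982 at 20, and its ratio to Alox5ap at 20 was 0.0113 to 0.0682. Ltc4s and Lta4h were nearer in level, and Ptgs2 stood at 0.305 to 1.07 of Ltc4s at 20 against 0.00373 to 0.0108 at 0. At 60 its ratio to Ltc4s was 0.0523 to 0.0803 in WT and 0.208 to 0.414 in KO. These ratios are given as a description without a test.

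**Figure D3:**
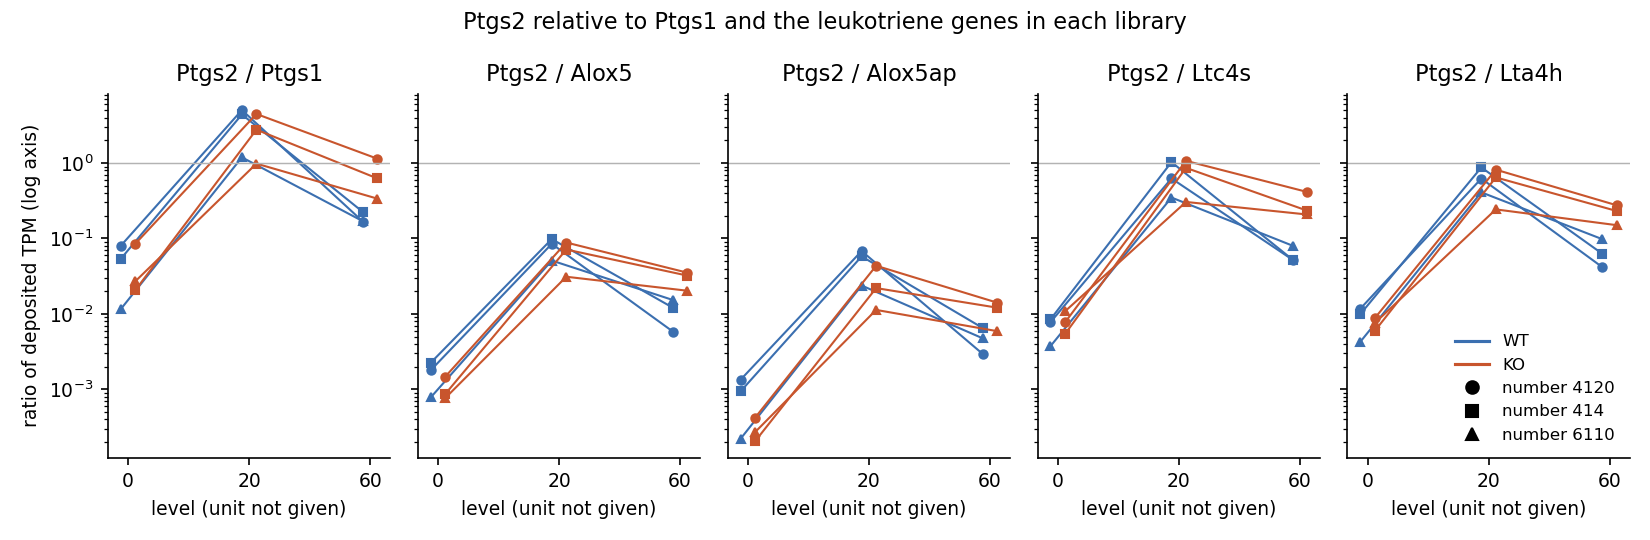
Ratio of Ptgs2 to Ptgs1, Alox5, Alox5ap, Ltc4s and Lta4h in deposited TPM on a shared log axis at levels 0, 20 and 60 (drawn at even steps), a line per culture; the grey line marks equal TPM. The ratio to Ptgs1 passes 1 at 20 in 5 of 6 cultures, while the ratios to Alox5 and Alox5ap stay below 0.1 throughout.

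Among the terminal synthases, Hpgds (gene ID 54486, chromosome 6, 65117293 to 65144981) encodes the haematopoietic synthase of prostaglandin D2. Its WT libraries 4120, 414 and 6110 had 244, 329 and 206 CPM at 0, then 181, 241 and 252 CPM at 20, and 159, 309 and 205 CPM at 60. In KO they had 184, 204 and 213 CPM at 0, then 135, 127 and 245 CPM at 20, and 119, 164 and 191 CPM at 60. KO was below WT in 8 of 9 pairs of one number and level, the exception being 6110 at 0, and the groups overlapped at every level. Over all levels KO stood at 176 ± 36.3 CPM and WT at 236 ± 50.8 CPM (SD over 3 cultures), a log2 difference of −0.43 ± 0.17 that did not pass (edgeR adjusted p = 0.11). With the number as a block it was −0.43 and passed (edgeR adjusted p = 0.045). Both fits take the libraries of a culture as independent, and the adjusted p was 0.40 with the culture as a random effect in limma-voom and 0.58 with counts summed per culture in edgeR.

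Ptges (gene ID 64292, chromosome 2, 30889471 to 30931020), the inducible microsomal synthase of prostaglandin E2, was low, at 1.57 to 11.4 CPM (48 to 216 counts), and passed in no comparison. Its group means ran from 1.98 ± 0.528 CPM in KO at 20 to 6.04 ± 4.76 CPM in WT at 60, and libraries within a group differed by a median of 2.99-fold. At 20 against 0 the log2 difference was −0.89 ± 0.66 in WT and −0.85 ± 0.66 in KO (edgeR adjusted p = 1 in both), so it did not follow Ptgs2 upward at 20. Tbxas1 (gene ID 21391, chromosome 6, 38864159 to 39084590), thromboxane A synthase, ran from 132 to 242 CPM, with number 6110 highest in 6 of 6 groups and group means within 1.17-fold of each other. Its differences lay between −0.18 and 0.22 in the comparisons of KO with WT and of the levels with 0, and none passed. Tbxas1 overlaps 7 annotated genes, Hipk2 among them, and Ptges overlaps 2 gene models. Without a stated strand, reads of overlapping genes cannot be told apart.

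Alox5 (gene ID 11689, chromosome 6, 116410071 to 116461178), the 5-lipoxygenase, was among the most abundant of the 10 and passed in no comparison. Its WT libraries 4120, 414 and 6110 had 565, 330 and 634 CPM at 0, then 729, 696 and 773 CPM at 20, and 659, 464 and 622 CPM at 60. In KO they had 464, 528 and 827 CPM at 0, then 819, 814 and 737 CPM at 20, and 744, 631 and 840 CPM at 60. In WT the libraries at 20 lay above those at 0 and above those at 60 without overlap, as did 5.46% and 6.1% of tested genes in these directions. The log2 differences were 0.52 ± 0.26 for 20 against 0 and −0.33 ± 0.26 for 60 against 20, with edgeR adjusted p of 0.89 and 0.98. In KO the levels overlapped, and KO differed from WT by 0.25, 0.11 and 0.34 at 0, 20 and 60 (SE 0.26 each; edgeR adjusted p = 0.72, 0.93 and 0.66). Alox5 overlaps 1 other gene model.

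Alox5ap (gene ID 11690, chromosome 5, 149265004 to 149288153) encodes FLAP, the membrane protein that presents arachidonic acid to 5-lipoxygenase. Its WT libraries 4120, 414 and 6110 had 270, 283 and 803 CPM at 0, then 325, 423 and 593 CPM at 20, and 468, 310 and 719 CPM at 60. The KO libraries had 581, 797 and 839 CPM at 0, then 597, 948 and 726 CPM at 20, and 664, 600 and 1036 CPM at 60. KO exceeded WT in each of the 3 numbers at each level, and at 20 the groups did not overlap, as was so for 8.35% of genes in that direction. At 0 and 60 the WT library of 6110 lay within the KO range.

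The Alox5ap difference of KO from WT was 0.71, 0.76 and 0.62 on the log2 scale at 0, 20 and 60 (SE 0.42 each; edgeR adjusted p = 0.51, 0.65 and 0.61). Over all levels it was 0.70 ± 0.24, or 1.62-fold (754 ± 129 against 466 ± 207 CPM), and missed the threshold (edgeR adjusted p = 0.072). With the number as a block it was 0.77 and passed (edgeR adjusted p = 0.008), and without number 6110 it was 1.03 and passed (0.018). It did not pass without 4120 (0.66, edgeR adjusted p = 0.27) or without 414 (0.49, 0.34), with the culture as a random effect in limma-voom (adjusted p = 0.27) or when edgeR was run on 1 summed library per culture (0.49). Among the levels of either genotype its log2 differences were −0.02 to 0.16, and none passed. Alox5ap is also a gene of neutrophils and macrophages. The neutrophil markers summed to 7.26 to 27.2 CPM over the KO libraries and 0.0915 to 5.29 CPM over the WT libraries, and the macrophage markers to 154 to 343 and 107 to 249 CPM. Their part in the Alox5ap values was not tested.

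Ltc4s (gene ID 17001, chromosome 11, 50236461 to 50238532), the synthase that joins glutathione to leukotriene A4 and so makes leukotriene C4, was lower in KO over all levels. Its WT libraries 4120, 414 and 6110 had 30.4, 20.5 and 30.9 CPM at 0, then 23.0, 15.5 and 26.3 CPM at 20, and 17.1, 25.0 and 27.6 CPM at 60. The KO libraries had 20.6, 19.7 and 13.7 CPM at 0, then 15.7, 15.8 and 17.5 CPM at 20, and 14.8, 20.3 and 19.2 CPM at 60. KO was the lower of the pair in 3 of 3 numbers at 0 and at 60 and in 2 of 3 at 20, while the groups overlapped at each level.

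Over all levels Ltc4s fell by 0.46 log2 units in KO (SE 0.14; 17.5 ± 0.993 against 24.1 ± 4.0 CPM, SD over 3 cultures; edgeR Benjamini-Hochberg adjusted p = 0.049). It was the 1 member called there, where 6.62% of tested genes were called lower and 10.9% in either direction, a share near that of the members. That fit takes the 3 libraries of a culture as independent. With the culture as a random effect in limma-voom the adjusted p was 0.41, and with counts summed per culture it was 0.46 in edgeR. The call was also lost without any one of the numbers (adjusted p = 0.20 without 4120, 0.091 without 414 and 0.29 without 6110). At single levels the differences were −0.60, −0.41 and −0.37 (edgeR adjusted p = 0.37, 0.68 and 0.61).

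Lta4h (gene ID 16993, chromosome 10, 93453396 to 93484896), the hydrolase that makes leukotriene B4, had the smallest spread within groups of the 10, a median of 1.18-fold, and group means within 1.25-fold of each other. In KO its libraries 4120, 414 and 6110 had 56.7, 55.9 and 61.1 CPM at 0, then 64.6, 65.7 and 68.7 CPM at 20, and 69.4, 63.8 and 83.1 CPM at 60. The KO libraries at 20 and at 60 lay above those at 0, as did the 4.2% and 9.18% of genes given above. The log2 differences were 0.20 ± 0.17 and 0.32 ± 0.17 (edgeR adjusted p = 1 and 0.44). In WT the libraries ran from 54.4 to 84.6 CPM and the levels overlapped.

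**Figure D4:**
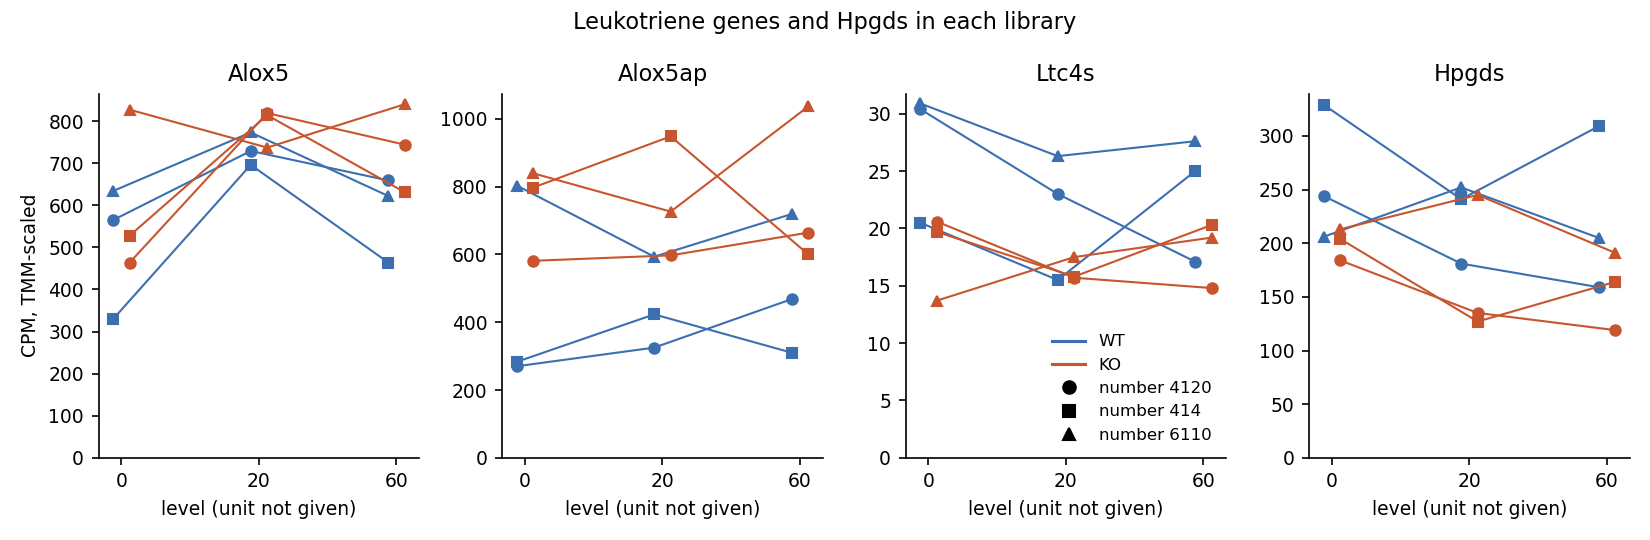
CPM of Alox5, Alox5ap, Ltc4s and Hpgds on linear axes from 0 at levels 0, 20 and 60 (drawn at even steps), a line per culture, WT blue and KO orange. Alox5ap is higher in KO within each number at each level, as 581 against 270 CPM in number 4120 at 0, and Ltc4s and Hpgds are mostly lower in KO with overlapping groups.

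Across the 10 members, 0 were called between KO and WT at each of the 3 levels. The shares of all tested genes called there were 0.274% at 0, 0.21% at 20 and 0.268% at 60. At an unadjusted p under 0.05 the members numbered 1, 0 and 1, beside 2078, 1336 and 1843 of the 17159 tested genes. The median log2 difference of the members was −0.20, −0.03 and 0.06, beside 0.01, −0.02 and 0.02 for all genes. DESeq2 called 1 member at 60, Ptgs2, and 0 members at 0 and 20, beside 221, 245 and 113 of all genes in that order. For 20 against 0 the median over members was −0.03 in WT and 0.05 in KO, beside −0.02 and −0.03 for all genes, and outside Ptgs2 no member passed with the level. For 60 against 0 it was 0.08 in WT and 0.25 in KO, beside −0.02 and 0 (rounded) for all genes, and 8 of 10 members had a positive value in KO. For the difference between genotypes in the response, edgeR called 0 members at 20 and at 60 (0% of all genes), and DESeq2 called 0 as well. At an unadjusted p under 0.05 there were 0 members at 20 and 1, Ptgs2, at 60, beside 68 and 188 of all tested genes. Comparisons that use the same libraries at 0 share those values.

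**Figure D5:**
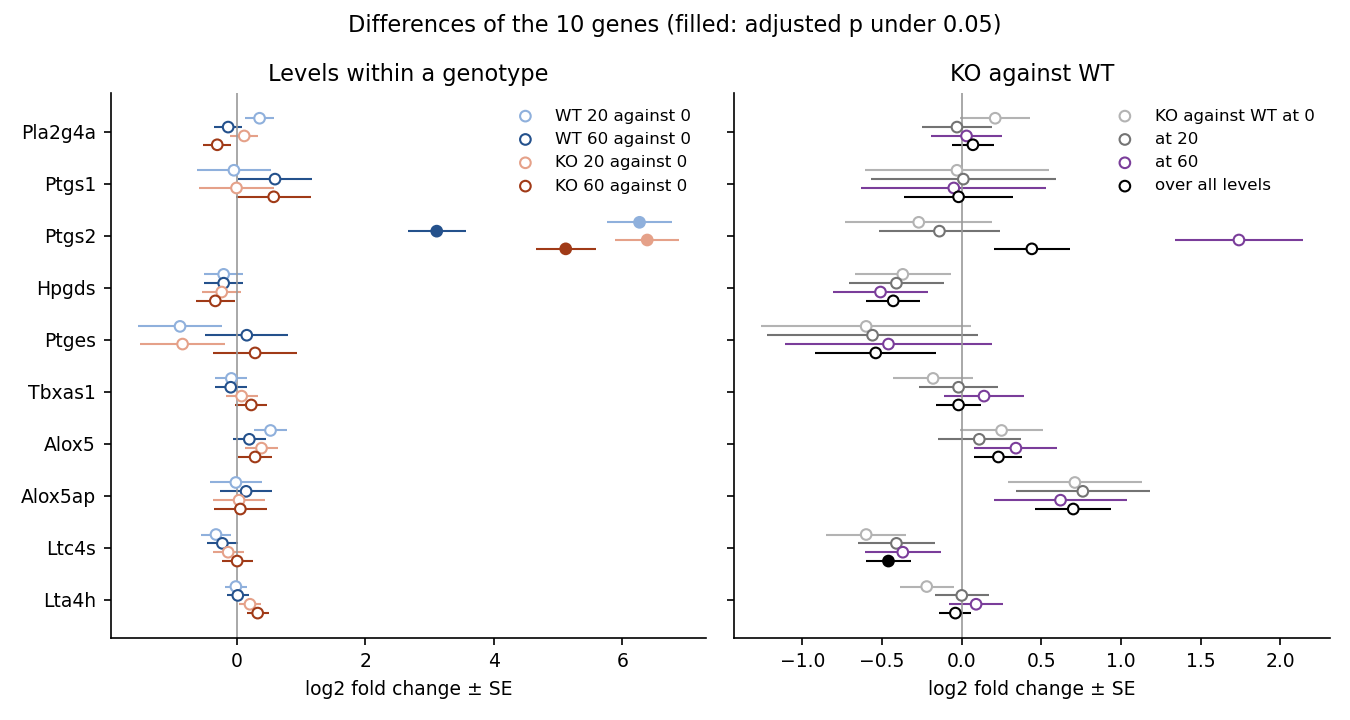
Log2 fold change from edgeR ± SE (worked back from the F statistic) for the 10 genes, for 20 and 60 against 0 in each genotype (left) and KO against WT (right), with filled points for an adjusted p under 0.05. Filled points are Ptgs2 in all 4 contrasts at left and Ltc4s over all levels at right, while Ptgs2 at 60 stands out at 1.74 with an open point.

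Of 64 other genes of the pathway, 39 passed the filter on low counts. Between KO and WT edgeR called 0 of the 39 at each single level. DESeq2 called 1 at 0 and 0 at 20 and 60, beside 245, 113 and 221 of all genes. At an unadjusted p under 0.05 there were 5 of the 39 each time, beside 2078, 1336 and 1843 of the 17159 tested genes. Over all levels, in the fit that takes libraries of a culture as independent, 6 of the 39 were called higher and 1 lower in KO. The shares of all tested genes were 4.29% and 6.62%. The median log2 difference of the 39 was 0.19 beside 0.01 for all genes. At an unadjusted p under 0.05 there were 16 of the 39, beside 5149 of all 17159 tested genes. DESeq2 called 11, beside 2874 of 19108 genes. Ptgir, the prostacyclin receptor, rose by 0.82 ± 0.17 (7.21 ± 1.00 against 4.27 ± 0.787 CPM, edgeR adjusted p = 0.0086). Pla2g15, a lysosomal phospholipase A2, rose by 0.52 ± 0.12 (52.9 ± 6.94 against 37.0 ± 4.44 CPM, edgeR adjusted p = 0.015). Cbr1, a carbonyl reductase able to reduce prostaglandin E2, fell by 0.49 ± 0.11 (31.2 ± 4.07 against 43.8 ± 6.35 CPM, edgeR adjusted p = 0.016). The other 4 that rose were Pla2g12a, Gpx4, Akr1b3 and Alox8. With the culture as a random effect in limma-voom, and with counts summed per culture in edgeR, 0 of the 39 were called. The adjusted p in these fits was 0.12 and 0.30 for Ptgir, 0.20 and 0.34 for Pla2g15, and 0.16 and 0.38 for Cbr1. Without number 4120 edgeR called 1 of the 39 and without number 414 it called 0, and neither set held Ptgir, Pla2g15 or Cbr1.

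With the level, edgeR called 0 of the 39 for 20 against 0 in either genotype (1 in each at an unadjusted p under 0.05, DESeq2 0) and 0 for 60 against 0 in WT (2 unadjusted, DESeq2 2). All genes at an unadjusted p under 0.05 numbered 990 in WT and 554 in KO for 20 against 0. For WT 60 against 0 they numbered 1363, and DESeq2 called 236. In KO, Acsl4, which activates arachidonic acid for its return to phospholipids, rose from 91.7 ± 21.1 CPM at 0 and 78.4 ± 19.5 CPM at 20 to 179 ± 26 CPM at 60 (log2 changes 0.97 ± 0.23 and 1.19 ± 0.23, edgeR adjusted p = 0.032 and 0.020), where 1.99% and 0.752% of genes were called higher. In WT its means were 69.5 ± 13.2, 69.4 ± 13 and 137 ± 4.17 CPM, with log2 differences of 60 from 0 and from 20 of 0.98 ± 0.23 each, which did not pass (edgeR adjusted p = 0.11 and 0.082). The difference between genotypes in its response at 60 was −0.01 ± 0.32 (edgeR adjusted p = 1). In WT, Ptgir rose from 2.60 ± 0.987 CPM at 20 to 7.26 ± 1.64 CPM at 60 (log2 change 1.47 ± 0.30, edgeR adjusted p = 0.039), where 0.157% of genes were called higher. In KO it had 5.12 ± 0.707 CPM at 20 and 11 ± 2.45 CPM at 60, a log2 difference of 1.11 ± 0.29 that did not pass (edgeR adjusted p = 0.10). The calls of both genes rest on single libraries. The Acsl4 call against 0 was lost without any library of the compared groups except KO 6110 at 0 (edgeR adjusted p = 0.058 to 0.17), and that against 20 without any except KO 4120 at 20 (0.053 to 0.11). The Ptgir call was lost without any of the 6 (0.055 to 0.16). For the difference between genotypes in a response edgeR and DESeq2 called 0 of the 39, with 0 at 20 and 1 at 60 at an unadjusted p under 0.05. The counts over all tested genes at that p were 68 and 188.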

How the data were processed

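RNA-seq was deposited for 18 libraries as a table of 45777 genes with 54 value columns, all mapped to libraries by name. Each library has a read count, an FPKM and a TPM per gene, per the file headers. The counts were deposited without normalization and are the base of all tests. Tools listed in the submitters' processing notes, with no role or order, are StringTie 2.1.3b, HISAT2 2.1.0, FastQC 0.11.7 and bcl2fastq 2.20.0, with build mm10. The strand of the libraries is not given in the sources used here. TPM and FPKM were made by the authors from the same reads and keep no depth.

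Genes were kept by filterByExpr (17159 left), scaled by TMM, and fitted with 1 mean per group in edgeR 4.0.16 (R 4.3.3) by its quasi-likelihood test. A gene was called at an adjusted p under 0.05 (Benjamini-Hochberg over all tested genes), in 12 comparisons. Each mean ± SD uses the 3 libraries of a group, or 3 culture means over all levels, and that fit takes the libraries of a culture as independent. The edgeR test gives no SE, so each SE of a log2 change was worked back as its absolute value over the square root of the F statistic. The log2 ratio of Ptgs2 to Ptgs1 used CPM + 0.1 and exact permutation tests. Scripts were tested on simulated data, and 0 of 18 pairs of libraries in a group were identical. Figures were drawn with matplotlib 3.10.9.

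The members, the pathway and marker lists and the tests were chosen with earlier results of these data known. All 10 members are named. Other pathway genes are named where called with a mean of at least 5 CPM, at most 3 per comparison by smallest p, and the 4 further ones called over all levels were named after their values were seen. The 5 genes nearest to Ptgs2 by group means are named. A TPM comparison between genes assumes the lengths the authors used.

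Pairing by number was judged from deviations of log2 CPM from group means. All 3 correlations exceeded 0.1 for KO against WT at 60 (0.43 to 0.53), 20 against 0 in WT (0.62 to 0.76) and KO (0.40 to 0.58), and in KO 60 against 0 (0.33 to 0.67) and 60 against 20 (0.37 to 0.60), but not for the other 4 contrasts of single groups. Alternatives were DESeq2 1.42.0, limma-voom (limma 3.58.1), other scalings and filters, the number as a block, the mitochondrial share, TPM and FPKM, and each library or number left out. RefSeq sequence was used for 9 members, and positions are RefSeq's in GRCm38.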

Additional observations from a re-analysis of the deposited data

How the results depend on the processing

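The rise of Ptgs2 at 20 passed in 24 of 24 alternatives in WT (log2 4.56 to 6.52, adjusted p at most 0.011) and in KO (4.52 to 6.79, at most 0.0082), as did KO 60 against 0 (3.15 to 5.31, at most 0.022). WT 60 against 0 passed in 15 of 24 (1.55 to 3.62, adjusted p 5.1e-09 to 0.66) and WT 60 against 20 in 21 of 24 (−3.75 to −2.82, up to 0.32). KO 60 against 20 passed in 1 of 24 (−1.62 to −0.94, adjusted p 0.039 to 0.83), and KO against WT at 60 in 3 of 24 (1.3 to 2.3, 0.0051 to 0.89). Over all levels Ltc4s passed in 10 of 37 (−0.6 to −0.25, 0.02 to 0.46), Alox5ap in 6 of 37 (0.49 to 1.03, 0.008 to 0.49) and Hpgds in 2 of 37 (−0.65 to −0.19, 0.041 to 0.59).

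For KO against WT over all levels, 1872 of 17159 genes were called as reported. DESeq2 called 2874 of 19108 genes, and the fit with the replicate number as a block called 3972 of 17159. The members called went from 1 to 2 with DESeq2 and to 3 with the block (Ltc4s, Alox5ap and Hpgds). They went to 0 with the culture as a random effect, library size alone, no filter on low counts, the mitochondrial share as a covariate, mitochondrial genes removed, counts summed per culture, an adjusted p of 0.01, log2(TPM + 0.1), log2(TPM + 1) and log2(FPKM + 0.1). For WT 60 against 0 they went from 1 to 0 with limma-voom, the compared groups only, and log2(TPM + 0.1), log2(TPM + 1) and log2(FPKM + 0.1), and for WT 60 against 20 from 1 to 0 with the compared groups only. DESeq2 called 1 member in KO against WT at 60 (221 of 16684 genes), and the random effect 1 in KO 60 against 20 (921 of 17159 genes). For KO against WT over all levels, limma-voom did not call Ltc4s (adjusted p = 0.064) and called Alox5ap instead (0.044). Leaving out a library or a number gave 0 to 1 members in KO against WT at 60 and over all levels and in WT 60 against 0 and against 20. The block changed no other count of members. The cause was not tested.

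With 1 number left out, the log2 ratio of Ptgs2 to Ptgs1 differed by 5.91 to 6.38 at 20 against 0, 3.1 to 3.63 at 60 against 0 and −3.28 to −2.49 at 60 against 20. Its exact permutation p was then 0.056 to 0.11, and 0.056 is the smallest that 36 assignments allow. With the replicate number as a block the 3 differences were 6.14, 3.34 and −2.79, each with an exact permutation p of 0.031, the smallest possible.

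Of 3130 values of single members under alternatives, 0 reversed among those called, and 379 differed in sign where neither fit made a call. Calls over all genes ranged widely over the alternatives: 19 to 245 (47 as reported), 18 to 119 (36) and 15 to 221 (46) for KO against WT at 0, 20 and 60, and 26 to 3972 (1872) over all levels. In WT they were 22 to 206 (103) for 20 against 0, 0 to 438 (38) for 60 against 0 and 2 to 522 (76) for 60 against 20. In KO they were 23 to 137 (77), 20 to 1819 (436) and 1 to 921 (191). Blocking by number gave 208, 119, 183, 3972, 158, 206, 269, 105, 1094 and 521, in the order of these comparisons. With scaling by library size only, the all-gene median moved by 0.16 at 0, 0.16 at 20 and 0.11 over all levels for KO against WT, by −0.22 for KO 60 against 0 and against 20, and by −0.14 for how the genotypes differ in the change to 60. It took the share of calls that were higher from 89.5% to 75% for WT 60 against 0, from 35.5% to 18.9% for WT 60 against 20 and from 67.5% to 48.5% for KO 60 against 20. The genes called in these comparisons went from 38 to 4, from 76 to 37 and from 191 to 33, so the shares rest on fewer calls. With 3 libraries per group, differences in Ptges (48 to 216 counts) and in Ptgs1 (spread 2.74-fold within groups) are poorly resolved.

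The alternatives for the named genes outside the 10 were chosen after seeing the data. Over all levels Ptgir passed in 31 of 37 (adjusted p up to 0.30), Pla2g15 in 30 (up to 0.34) and Cbr1 in 26 (up to 0.38). Acsl4 passed in 9 of 24 for KO 60 against 0 (up to 0.68) and 10 of 24 against 20 (up to 0.88), and Ptgir in 8 of 24 for WT 60 against 20 (up to 1). None reversed.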
